A study of Mus musculus with 43 samples.

Results

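The genes described here encode the proteins of the cytosolic ribosome. They were taken by name from the count table of epididymal white fat, the fat pad beside the epididymis: symbols of the form Rpl or Rps with a number, with the 3 acidic stalk genes Rplp0, Rplp1 and Rplp2 and the laminin receptor gene Rpsa, protein-coding only and without the S6 kinases. The rule gave 83 of the 56748 genes in the table: 43 of the large subunit, 31 of the small subunit, 3 of the stalk, and 6 paralogs or like-named genes (Rpl3l, Rpl7l1, Rpl10l, Rpl22l1, Rpl39l and Rps27l). Of these, 82 had enough counts to be tested. Rpl10l, a testis paralog of Rpl10, had at most 6 counts in any library and was left out.

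A ribosome carries a single copy of most of these proteins, and cells make them in matched amounts. Their messenger RNAs are short, abundant and begin with a run of pyrimidines at the 5′ end (the TOP motif), through which the growth kinase complex mTORC1 controls their translation. Fat tissue holds adipocytes, immune cells and stromal cells, and in RNA of the whole tissue more or fewer cells of a type and more or less RNA per cell cannot be told apart.

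The study fed male mice a standard diet (SD, 10% fat, 7 libraries), a high-fat diet (HFD, 60% fat, 10 libraries), or the high-fat diet with SZ-A, the alkaloids of mulberry twig (Ramulus Mori, Sangzhi), at 200 (9 libraries), 400 (8) or 600 (9) mg/kg/day. All 43 libraries came from poly(A)-selected RNA of the tissue. The labels name no strain, age or length of treatment. The labels number the libraries within a group, and the libraries numbered 1 to 5 (1 and 2 in SD) differed from the later ones in many genes. These are called library set 1 (22 libraries) and library set 2 (21 libraries), and the set was a term in the tests unless said otherwise. The labels do not say what the order stands for (mice, day or sequencing run), nor that each library is a separate mouse, so each p-value rests on how much these libraries vary, which may be technical.

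Libraries held 32716294 to 44259619 counts. The ribosomal protein genes took 0.966 to 3.64% of them. In 4 libraries, genes of another tissue stood out. SD library 4 and SZ-A 600 library 6 held ciliated epithelium genes at 714 and 1304 normalised CPM (counts relative to the scaled size of the library), SZ-A 400 library 6 held vas deferens and epididymal duct genes at 22645, and SZ-A 400 library 3 held squamous epithelium genes at 10931. In the other 39 libraries these 3 lists stood at 73 normalised CPM or less. The highest of those 39 was SD library 1, with duct genes at 73, ciliated genes at 37.6 and squamous genes at 70.6; SD library 2 was at 0.291, 2.76 and 36.5.

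The genes were strongly expressed but not evenly. By FPKM (fragments relative to annotated gene length and library size), 76 of the 83 had a median over the libraries of at least 10, from 15.5 to 1015, with a median of 131. The order by FPKM rests in part on the annotated lengths. Rpl36 (383 bases) and Rps15a (6270 bases) had median counts of 5710 and 4783, but 410 and 22 FPKM. Rplp1, a stalk protein that recruits the elongation factors, was highest at 1015 FPKM. Next came Rps3a1 at 548, then Rps15, and then Rplp0, the stalk's anchor, at 425. At the low end stood Rpl22l1 at 8.04 FPKM, Rpl13a at 3.24, Rps10 at 0.603, Rpl24 at 0.466, Rpl39l at 0.182 and Rpl3l at 0.0642. Rpl13a, Rps10 and Rpl24 encode obligatory subunits, so a level this low per library is uncertain. For Rps10, 4 rows named as its pseudogenes held a summed median of 2352 counts, against 54 in its own row. Gapdh, a gene with many processed copies, was also low, at 1.7 to 26.8 normalised CPM, and how reads of near-identical copies were assigned was not tested. In the whole table, 322 rows were named as ribosomal protein pseudogenes, not all of them after a member.

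Promoter windows of 300 bases were found for 63 of the 83 genes in RefSeq's table for GRCm38.p6 (75 windows, since some genes have more than 1 start). The windows below are shown for the genes the results turn on: the stalk gene Rplp0 and its partner Rplp2, which was not called between the diets; Rpl41, Rps12 and Rpl35, with the largest differences between the library sets; Rpl4 and Rps26, with small ones; and Rps10 and Rpl24, which went the other way. Each runs 5′ to 3′ in the gene's direction, with 30 bases before the annotated start and 25 from the start on, and capitals mark each CTTTC on the gene's strand, a pyrimidine run of the kind that opens these messages.
Rplp0 (chr5:115559437-115559491, plus strand): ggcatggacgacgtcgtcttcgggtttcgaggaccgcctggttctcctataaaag
Rplp2 (chr7:141447621-141447675, plus strand): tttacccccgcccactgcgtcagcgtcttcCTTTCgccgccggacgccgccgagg
Rpl41 (chr10:128549144-128549198, minus strand): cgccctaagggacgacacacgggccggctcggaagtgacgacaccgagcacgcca
Rps12 (chr10:23787185-23787239, minus strand): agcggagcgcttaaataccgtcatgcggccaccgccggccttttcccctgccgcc
Rpl35 (chr2:39005107-39005161, minus strand): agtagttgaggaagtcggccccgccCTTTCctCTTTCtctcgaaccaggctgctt
Rpl4 (chr9:64173357-64173411, plus strand): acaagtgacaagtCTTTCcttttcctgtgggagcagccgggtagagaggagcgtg
Rps26 (chr10:128626482-128626536, minus strand): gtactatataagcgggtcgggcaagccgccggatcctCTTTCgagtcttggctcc
Rps10 (chr17:27635220-27635274, minus strand): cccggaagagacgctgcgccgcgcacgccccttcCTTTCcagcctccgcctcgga
Rpl24 (chr16:55966245-55966299, plus strand): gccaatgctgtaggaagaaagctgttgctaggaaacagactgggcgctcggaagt

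CTTTC lay within 25 bases either side of the annotated start, on the gene's strand, in 19 of the 75 windows of these genes (25.3%) and in 6.75% of all 32851 windows of the table. The 6-letter TCTTTC, which contains it, was in 10 windows (13.3%) against 2% of all. Over the whole 300 bases and both strands, CCGGAAG, the core bound by ETS factors, was in 27 windows (36%) against 8.86% of all. AAGATGG, the core bound by YY1, was in 12 (16%) against 6.34%, and TATAAA, the TATA box, was in 7 (9.33%) against 13.6%. Of the windows shown, those of Rplp0, Rpl41, Rps12 and Rpl24 held no CTTTC, and those of Rplp2, Rpl35, Rpl4, Rps26 and Rps10 did. These are exact matches of letters around annotated starts, and windows of a gene with several starts can overlap. A window without CTTTC can hold another pyrimidine run, as that of Rps12 does after its start. In the window of Rplp0, TATAAA lies after the annotated start.

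The high-fat diet was accompanied by more messenger RNA for most ribosomal proteins. Of the 82 tested, 65 rose in HFD against SD and 0 fell, at an adjusted p under 0.05 in edgeR's quasi-likelihood test with Benjamini-Hochberg adjustment over 20218 genes (in the same test, 74 of the 82 had an unadjusted p under 0.05; DESeq2 called 64 higher and 1 lower, limma voom 65 and 1). Of all genes tested, 20.2% rose and 15.1% fell. The median difference of the 82 was 0.50 on the log2 scale (1.41-fold), against -0.01 over all genes, and 79 lay above 0. By subunit, 37 of 43 large subunit genes and 24 of 31 small subunit genes rose, each with a median of 0.50, with 2 of the 3 stalk genes and 2 of the 5 tested paralogs.

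Summed over the members, the share of counts in set 1 was 1.86 and 2.3% in the 2 SD libraries, and 2.21, 2.8 and 3.64% (lowest, median, highest) in the 5 HFD libraries. In set 2 it was 0.966, 0.999 and 1.85% in the 5 SD libraries and 1.37, 1.64 and 1.78% in the 5 HFD libraries. In both sets the ranges of the groups overlapped, by 1 SD library in each. In set 2 that library was SD 4, the one with ciliated epithelium genes. In set 1 it was SD 1, which held the most other tissue genes of the libraries not set apart; without it 67 genes rose and 0 fell.

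**Figure D1:**
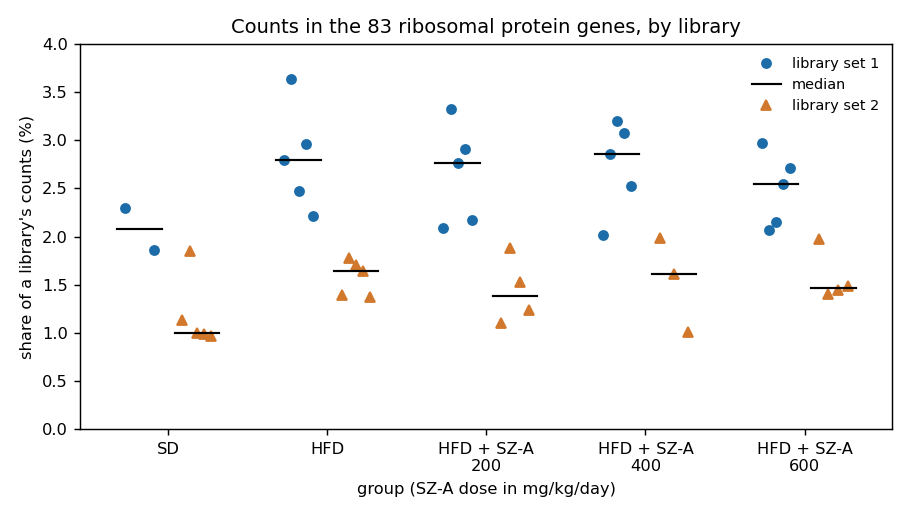
Share of each library's counts in the 83 ribosomal protein genes (%, vertical axis) by group, with circles for library set 1, triangles for library set 2 and bars for the medians. Within each group the set 2 libraries lie lower, and in both sets the HFD median lies above that of SD (2.8 against 2.08%, 1.64 against 0.999%).

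Rplp0, the gene most often used as a level control among these, was at 708 and 762 normalised CPM in the SD libraries of set 1, and at 838, 1000 and 1163 (lowest, median, highest) in the HFD ones. In set 2 it was at 356, 380 and 590 in SD and 499, 593 and 644 in HFD. The groups did not overlap in set 1, and in set 2 only SD library 4 reached into the HFD range. The difference was 0.42 (log2, standard error 0.11, adjusted p 0.00404 in edgeR's quasi-likelihood test). Rplp1 rose by 0.47 (adjusted p 0.00591). Rplp2, the other acidic stalk partner, stood at 0.00 (standard error 0.15, adjusted p 0.998): it was at 342 and 394 normalised CPM in the SD libraries of set 1 and 238, 283 and 391 in the HFD ones, and at 167, 181 and 191 against 136, 201 and 275 in set 2. The groups overlapped for Rplp2 in both sets; whether its difference differs from that of Rplp0 was not tested.

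Of the small subunit, Rpsa, which also serves as the laminin receptor, was at 335 to 433 normalised CPM in the SD libraries of set 2 and 444 to 729 in the HFD ones, with no overlap, and rose by 0.49 (standard error 0.12, adjusted p 0.00164). Rps25, which sits near the tRNA exit of the small subunit, rose by 0.74 (adjusted p 0.00226) and Rps4x by 0.37 (adjusted p 0.00589). Rps6, the S6 kinase target at the small subunit's surface, did not pass the test, at 0.29 (adjusted p 0.0586), and neither did Rps27, a zinc-finger protein, at 0.51 (adjusted p 0.127), nor Rps27a, made as a fusion with ubiquitin, at 0.72 (adjusted p 0.0643).

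Of the large subunit, Rpl17 had the largest called difference: it was at 24.6, 31.6 and 51.9 normalised CPM in the SD libraries of set 2 against 37.9, 71.3 and 140 in the HFD ones, and rose by 1.09 (standard error 0.32, adjusted p 0.00815). That gene has 11 pseudogene rows with a summed median of 6572 counts, against 3905 of its own, so its value is uncertain. Rpl13a rose by 0.77 (adjusted p 0.00161, at a low level of its own) and Rpl31 by 0.74 (adjusted p 0.000877). The 5S-binding pair of the large subunit, Rpl5 and Rpl11, which also bind MDM2 and so tie ribosome assembly to p53, rose by 0.53 (adjusted p 0.00497) and 0.37 (adjusted p 0.0255). Rpl3 of the peptidyl transferase centre rose by 0.49 (adjusted p 0.00873) and Rpl39 of the exit tunnel by 0.50 (adjusted p 0.0111). Rpl22, which is dispensable in mice, was at 0.19 (adjusted p 0.264), and its paralog Rpl22l1 at 0.23 (adjusted p 0.298).

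Among the paralogs, Rps27l rose by 0.65 (adjusted p 0.00266) and Rpl7l1 by 0.35 (adjusted p 0.00614). Rpl39l, a paralog known from testis, was at 2.09 (standard error 0.98, adjusted p 0.0905), with libraries at 0 to 0.488 normalised CPM in SD and 0 to 3.29 in HFD. Rpl3l, which replaces Rpl3 in striated muscle, was at -1.55 (adjusted p 0.204). The lowest of the others were Rpl24 at -0.90 (adjusted p 0.0544), Rps10 at -0.13, Rplp2 at 0.00 and Rpl21 at 0.16. Rpl24 fell past the threshold in 8 of the alternative settings run, DESeq2 and limma voom among them.

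**Figure D2:**
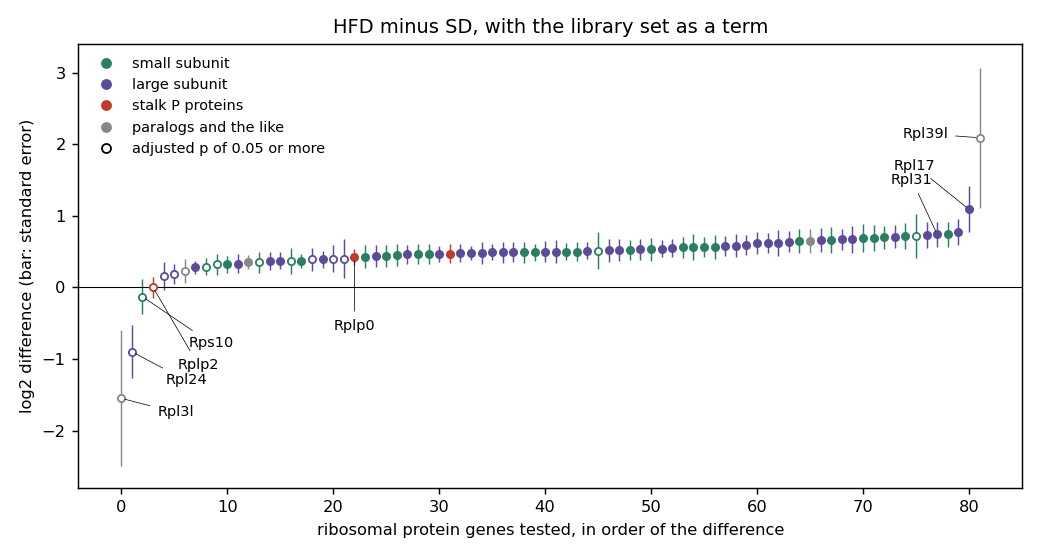
Difference HFD minus SD on the log2 scale (vertical axis) of the 82 tested genes in order of size (horizontal axis), with bars for the standard error, colours for the part of the ribosome and open circles where the adjusted p is 0.05 or more. The genes lie around the median of 0.50, and Rplp2, Rps10, Rpl24 and Rpl3l lie at or below 0.

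Without the set term 30 genes were called, all higher, 29 of them among the 65. Without the 4 libraries with other tissue genes 70 rose and 2 fell, and the 65 were among the 70. By library, 34 of the 82 genes were above every SD library in all HFD libraries of set 1 (5 against 2 libraries; 26.7% of all genes tested were), and 9 in set 2 (5 against 5; 4.12% of all), namely Rpsa, Rps2, Rplp1, Rps26, Rpl27, Rpl30, Rpl23a, Rpl7l1 and Rpl13a. In set 2, 1 gene was below every SD library, Rps10 (2.97% of all). Fitted on set 1 alone the count was 8 and on set 2 alone 0 (median differences of 0.38 and 0.56); on set 2 without the 3 libraries with other tissue genes it was 43, an alternative chosen after the data were seen. A test of whether the HFD minus SD difference itself differed between the sets called 0 of the 82 genes and 0 of all genes in edgeR (0% in each direction; 2 and 1829 at an unadjusted p under 0.05).

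Other genes of the translation machinery were called in both directions. Of 6 ribosomal protein genes that the name rule leaves out, 3 rose, among them Rack1, a scaffold on the small subunit (0.76, adjusted p 0.000192 in edgeR's quasi-likelihood test), and Fau, the precursor of a small subunit protein (0.56, adjusted p 0.00705). Of 22 translation factors and other genes with TOP messages, 7 rose and 1 fell, with a median of 0.21: the elongation factor subunit Eef1g rose by 0.57 and the initiation factor subunit Eif3k by 0.42, and the helicase Eif4a2 fell by 0.71. Of 30 ribosome biogenesis genes, 10 rose and 5 fell, with a median of 0.04: the pre-60S assembly factor Bop1 rose by 0.58 and the small nucleolar RNA-binding Nhp2 by 0.91, while the pseudouridine synthase Dkc1 fell by 0.53 and the assembly factor Rrs1 by 0.49. Of 16 genes of mTORC1 and the control of TOP messages, 2 rose (Rptor, its scaffold, by 0.52, and the cap-binding Eif4e by 0.40) and 1 fell (the S6 kinase gene Rps6kb1, by 0.54). Of 77 mitochondrial ribosomal protein genes, 24 rose and 4 fell, with a median of 0.15. Beside the 20.2% of all genes that rose and the 15.1% that fell, the calls of the mTORC1 list and the falls of the biogenesis list are near or under the background, and nothing is read from them.

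Markers of several cell types were called between the diets, where 20.2% of all genes rose and 15.1% fell. Of 16 macrophage markers 15 rose, with a median difference of 2.66, and of 10 proliferation genes all 10 rose. Of 8 fibroblast markers 5 rose (median 0.87), of 10 T cell markers 3 (median 1.36) and of 10 B cell markers 1 (median 1.22). Of 8 endothelial markers 2 fell (median -0.41), and of 15 adipocyte markers 2 rose and 2 fell (median -0.58). The calls of the B cell and adipocyte lists are near or under the shares of all genes, and nothing is read from these calls. The part of the markers in the ribosomal protein result was not tested. Summed macrophage markers were at 685 to 2114 normalised CPM in SD and 1363 to 22842 in HFD. The 2 HFD libraries lowest in them were library 8, at 1363, and library 10, at 1692. Among the 5 HFD libraries of set 2, library 8 had the second highest share of counts in ribosomal protein genes, 1.71%, and library 10 the lowest, 1.37%. In normalised CPM summed over the members, library 8 was the highest of these, at 18963. Library 6, the richest of them in macrophage markers at 13013, was lowest at 12575, and library 10 stood at 13281. The mean log2 level of the members was set against the summed level of 7 marker lists across the high-fat libraries without other tissue genes, 19 in set 1 and 14 in set 2. Pearson's r was 0.64 in set 1 and 0.27 in set 2 for macrophage markers, 0.57 and -0.05 for proliferation genes, 0.52 and 0.08 for B cell markers, 0.47 and 0.01 for fibroblast markers and 0.24 and 0.16 for T cell markers. It was -0.56 and -0.33 for endothelial markers and -0.46 and 0.10 for adipocyte markers. With the libraries that held other tissue genes, it was 0.39 over 20 libraries and -0.01 over 16 for macrophage markers, and -0.51 and -0.43 for endothelial markers. These are descriptions over libraries that share the scaling.

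SZ-A at 200 mg/kg/day was tested for its difference from the high-fat diet alone. None of the 82 genes was called in edgeR's quasi-likelihood test, in either direction, nor by DESeq2 or limma voom (1 had an unadjusted p under 0.05 in edgeR, 4 in each of the others), where 0.0396% of all genes rose and 0.00495% fell. The median difference was -0.11, against 0.01 over all genes, and 70 genes lay below 0. Rplp0 was at 851, 967 and 1170 normalised CPM in set 1 and 401, 514 and 633 in set 2, which overlapped the HFD libraries in both; its difference was -0.09 (standard error 0.10). None of the 82 genes separated from HFD in every library, above or below, in set 1 (3.4% and 3.18% of all genes did) or set 2 (1.87% and 0.638%). The extremes were Rpl3l at 1.06, Rps10 at 0.37, Rps27a at 0.14, Rps21 at 0.09 and Rpl21 at 0.06, and Rpl39l at -1.56, Rpl7a at -0.47, Rpl17 at -0.34, Rpl27 at -0.26 and Rpl8 at -0.23 (adjusted p from 0.358 to 0.924). Of other named genes, Rpl7l1 was at -0.18, Rpsa at -0.13, Rpl11 at -0.09, Rpl3 at -0.08, Rps6 and Rps4x at -0.06, Rpl22 at -0.05, Rpl5 at -0.03, Rplp1 at -0.09, Rplp2 at 0.02, Rps27, Rpl39 and Rpl22l1 at 0.03 and Rps27l at 0.05.

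SZ-A at 400 mg/kg/day gave 1 called gene of 82, Rpl3l, which rose in edgeR's quasi-likelihood test; 4.64% of all genes rose and 1.66% fell. Its difference was 4.37 (standard error 0.95, adjusted p 0.00606), and it rested on library 6, at 12.9 normalised CPM, where the next library was at 1.05 and the HFD libraries were at 0 to 0.158. Library 6 is the one with vas deferens and epididymal duct genes at 22645 normalised CPM; without it the difference was 2.24 and no gene was called, and without all 4 libraries with other tissue genes it was 1.25. DESeq2, limma voom, both fits on FPKM and the fit with a replicate block did not call it. The median over all 82 was -0.10 and 68 lay below 0 (median of all genes: 0.04). Rps21 at 0.19, Rps27 at 0.14, Rpl41 at 0.11 and Rpl24 at 0.09 were next from the top, and Rpl17 at -0.52, Rpl7a at -0.42, Rpl13a at -0.33, Rpl39l at -0.22 and Rps2 at -0.20 were lowest. Rplp0 was at 824, 991 and 1156 normalised CPM in set 1 and at 378, 518 and 546 in set 2, with a difference of -0.09. Of other named genes, Rpsa was at -0.18, Rpl7l1 at -0.20, Rpl22l1 at -0.14, Rps27a at -0.12, Rpl5 and Rps4x at -0.11, Rplp1 at -0.08, Rps6 at -0.07, Rps27l at -0.05, Rpl3 and Rpl11 at -0.03, Rpl39 at -0.02, Rplp2 at 0.04 and Rpl22 at 0.07. None of the 82 separated from HFD in every library of set 1 (2.68% of all genes were above and 3.74% below), and in set 2 only Rpl3l was above and none below (4.55% and 2.52%).

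SZ-A at 600 mg/kg/day gave 2 called genes, both lower, where 10.5% of all genes rose and 10.9% fell. Rpl7l1, a paralog of Rpl7 that takes part in ribosome assembly, was at 65.7, 75.1 and 93 normalised CPM (lowest, median, highest) in HFD and 48.5, 57.8 and 71 in the SZ-A libraries of set 1, and at 45.7, 47.9 and 54.6 against 32.6, 42.6 and 48 in set 2. The groups overlapped in both sets, and the gene fell by 0.30 (standard error 0.09, adjusted p 0.0163 in edgeR's quasi-likelihood test). Rpl39l fell by 2.82 (standard error 0.96, adjusted p 0.0332), at 0 to 0.236 normalised CPM in SZ-A 600 against 0 to 3.29 in HFD. HFD library 10 stood at 3.29, and without it the difference was -2.25 (adjusted p 0.0679 in edgeR). Leaving out SZ-A 600 library 2, 3, 6 or 7 also took the adjusted p of Rpl39l above 0.05, at -2.6 to -2.8 (adjusted p 0.0526 to 0.0652), and without HFD library 3 the count was 4. Neither gene was called in set 1 alone or in set 2 alone.

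The median of the 82 was -0.12 (all genes: 0.05), and 67 lay below 0. Beyond those named, the highest were Rpl3l at 1.17, Rpl24 at 0.39, Rpl21 at 0.24, Rplp2 at 0.22 and Rps21 at 0.15 (adjusted p 0.244 to 0.523). The lowest after Rpl39l were Rpl17 at -0.40, Rpl7a at -0.30 and Rpl10a at -0.29 (adjusted p 0.114 to 0.374). Rplp0 was at 797, 868 and 944 normalised CPM in set 1 and 486, 509 and 619 in set 2, at -0.16 against HFD (adjusted p 0.25), and in no set did it separate from HFD. Rpsa was at -0.23 (adjusted p 0.121), Rpl3 at -0.25 (adjusted p 0.165) and Rps6 at -0.08. Rps27a was at -0.24, Rps4x at -0.15, Rpl5 at -0.09, Rplp1 at -0.07, Rpl11 and Rpl39 at -0.02, Rps27l at 0.01, Rpl22 at 0.08, and Rps27 and Rpl22l1 at 0.10. In set 1, Rpl3 and Rpl39l, 2 of the 82 genes, were below every HFD library in all SZ-A 600 libraries (13.8% of all genes were) and none above (11.8%); in set 2 none were below (1.62%) or above (2.29%). The edgeR test of a difference between sets called 0 of the 82 at every dose; of all genes it called 0.173% higher and 0.00989% lower at 400 mg/kg/day and 0% at the others.

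Of the 30 ribosome biogenesis genes, 12 fell and 0 rose at 600 mg/kg/day, where 10.9% of all genes fell and 10.5% rose. Bop1 fell by 0.54 (adjusted p 0.000395) and Nop2, an rRNA methyltransferase, by 0.39 (adjusted p 0.00201), both in edgeR's quasi-likelihood test. At 400, 3 fell where 1.66% of all genes did: Nop2 by 0.31, Bop1 by 0.31 and Myc, the growth regulator, by 0.70. Of the 22 translation factors, 3 fell (Eif3a, Eif4a1 and Eef1g) and 1 rose (Eif4a2) at 600. The calls of the translation factors are near or under the shares of all genes, and nothing is read from them. Of 16 macrophage markers 7 fell, of 10 proliferation genes 10, of 8 fibroblast markers 4 and of 10 B cell markers 2 at that dose. Of 15 adipocyte markers 2 rose, near the share of all genes. The part of these markers in the values of the ribosomal protein genes was not tested. The 3 doses and HFD against SD share the same 10 HFD libraries, so values between comparisons are not independent and are given side by side.

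**Figure D3:**
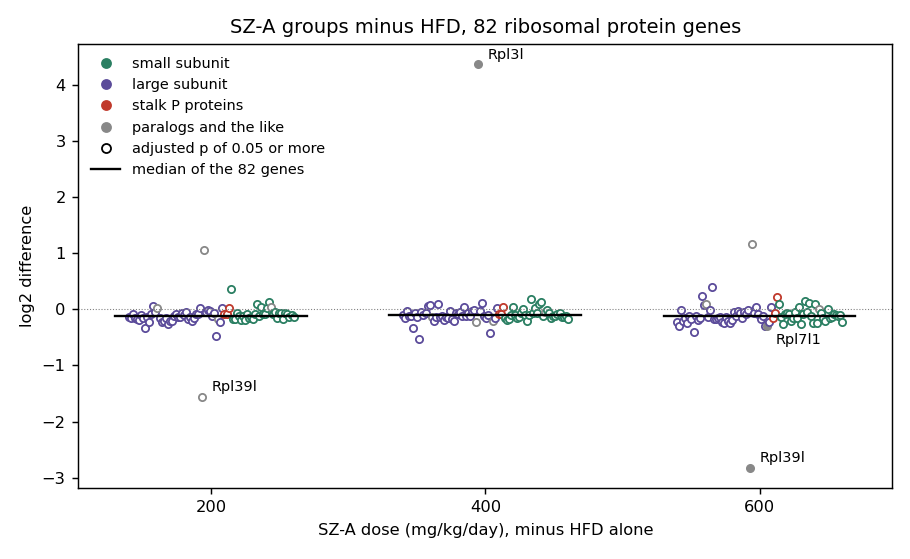
Difference of each SZ-A group minus HFD on the log2 scale (vertical axis) of the 82 genes, by dose in mg/kg/day (horizontal axis), with lines for the median, colours for the part of the ribosome and filled circles for called genes. The medians are -0.11, -0.10 and -0.12, and the genes that stand apart are Rpl3l and Rpl39l.

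The median difference was larger between the library sets than between any groups. Of the 82 genes, 78 were lower and 2 higher in set 2 than in set 1 (all genes: 25% lower, 32.9% higher). The median difference was -1.03 (0.491-fold), against 0.08 over all genes. The summed share of every set 2 library lay below that of every set 1 library in each of the 5 groups, in SD by the narrow gap of 1.85 to 1.86%. Within groups, every set 2 library was below every set 1 library for 76 of 82 genes in SD (17.6% of all genes), 58 in HFD (10.6%), 73 at 200 mg/kg/day (10.3%), 71 at 400 (9.58%) and 75 at 600 (10.9%).

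Rpl41, the smallest of the ribosomal proteins, showed the largest fall. In SD it was at 477 and 593 normalised CPM in set 1 and at 137, 152 and 194 in set 2; in HFD it was at 425, 753 and 1060 in set 1 and at 140, 187 and 282 in set 2. With SZ-A, set 1 and set 2 spanned 715 to 975 and 111 to 238 at 200 mg/kg/day, 653 to 994 and 119 to 396 at 400, and 556 to 876 and 178 to 272 at 600. The sets did not overlap in any group. It fell by 1.87 (standard error 0.13, adjusted p 2.3e-15 in edgeR's quasi-likelihood test), followed by Rps12 at -1.81, Rpl35 at -1.68, Rpl17 at -1.67 and Rpl34 at -1.64. Rps12 has 24 pseudogene rows with a summed median of 2631 counts, against 5014 of its own. Rps27l, a paralog of Rps27, fell by 1.64, and Rps27 and Rps27a were at -1.33 and -1.12.

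Falls were smallest in Rpl4, which forms the tunnel wall, at -0.64 (standard error 0.06), Rpl7l1 at -0.67, Rps26 at -0.71 and Rpl21 at -0.75. All 3 stalk genes fell, Rplp0 at -0.83, Rplp1 at -1.05 and Rplp2 at -0.83. So did Rpl39 at -1.29, Rpl5 at -1.08, Rpl11 at -0.95, Rpl22 at -0.94, Rpl22l1 at -0.88, Rpsa at -0.85, Rps6 at -0.84, Rpl3 at -0.79 and Rps4x at -0.77. Rps10 rose by 0.76 (adjusted p 5.03e-05) and Rpl24 by 0.69 (adjusted p 0.0115), the 2 subunit genes of lowest level. Rpl3l, at 1.35 (adjusted p 0.0601), and Rpl39l, at 0.54 (adjusted p 0.503), were not called. The median was -0.97 over the large subunit and -1.12 over the small.

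**Figure D4:**
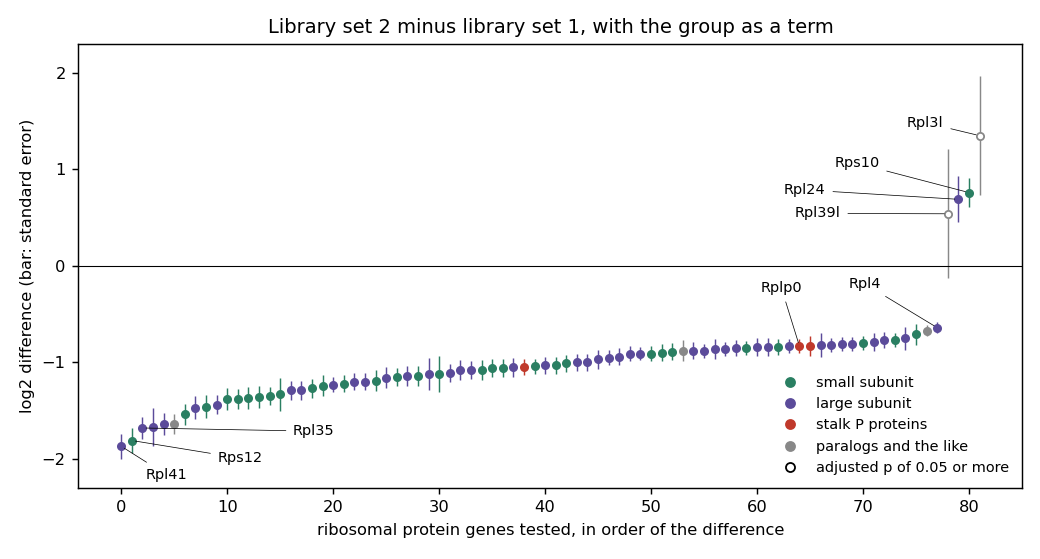
Difference of library set 2 minus library set 1 on the log2 scale (vertical axis) of the 82 genes in order of size, with bars for the standard error, colours for the part of the ribosome and open circles where the adjusted p is 0.05 or more. From Rpl41 at -1.87 to Rpl4 at -0.64, 78 genes fell, and Rps10 and Rpl24 rose.

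The set difference varied with gene length in other genes. Among 15163 other protein-coding genes, the median was -0.58 up to 1000 bases, -0.31 from there to 2000, -0.14 from there to 4000 and 0.14 above 4000 (Spearman rho 0.30 across genes). Among the 82 the medians in the same classes were -1.07, -0.94, -0.98 and -1.31 (rho 0.01). Of 77 mitochondrial ribosomal protein genes 71 were lower in set 2 (median -0.60), as were 19 of 22 translation factors and TOP genes (median -0.67; 1 was higher), and 12 of 30 biogenesis genes (median -0.11; 2 were higher). Macrophage markers were lower in set 2 as well (12 of 16, median -1.10), as were 4 of 8 fibroblast markers, while 5 of 10 B cell markers were higher. Of 10 proliferation genes 3 were lower, and of 10 T cell markers 2 were higher. These last 2 counts are near or under the shares of all genes (25% lower, 32.9% higher), and nothing is read from them. Genes of small nuclear, nucleolar, Cajal body and micro RNAs took 0.00231 to 0.00544% of counts in set 1 and 0.00744 to 0.0191% in set 2, with no overlap between the sets. The part of these, and of gene length, in the set difference was not tested.

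Rplp0 and other genes used as references for quantitative PCR (normalising one gene to a steady one) moved with diet and set. Of 12 such genes, 7 rose and 1 fell in HFD against SD, among them Actb, which rose by 1.00, and Sdha, which fell by 0.60, while Tbp (-0.19) was not called. Between the sets, 8 were lower and 2 higher: Ppia fell by 0.93, and Tbp (0.43) and Polr2a (0.37) rose. Over all 43 libraries the highest level of Rplp0 was 3.28 times the lowest, against 2.55 for Tbp, 2.11 for Ywhaz and 6.1 for Actb.

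**Figure D5:**
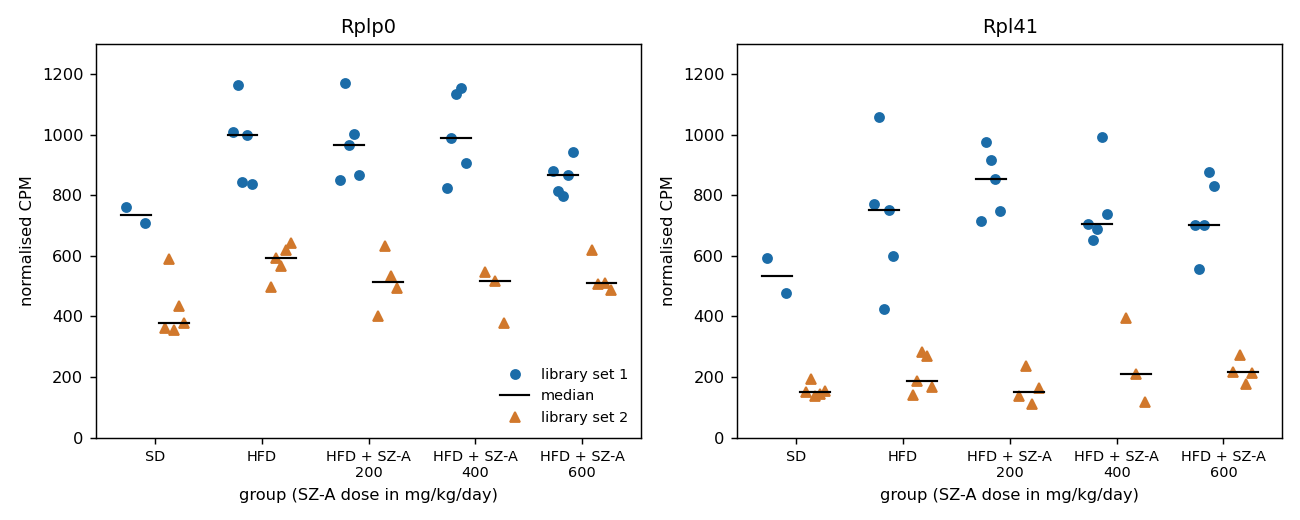
Normalised CPM (vertical axis) of Rplp0 and Rpl41 by library and group, with circles for library set 1, triangles for library set 2 and bars for the medians. In SD the medians of Rplp0 are 735 and 380 in the 2 sets, and of Rpl41 535 and 152.

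The members moved together between libraries. After the group and set means were taken out, the median correlation of a gene with the mean of the other 81 was r = 0.90 over the 43 libraries, and 77 of the 82 were above 0.5. The 5 others were Rplp2 (0.47), Rps10 (0.29), Rpl24 (0.27), Rpl3l (0.12) and Rpl39l (-0.07). The most coherent were Rpl18, Rpl37a, Rps20 and Rps23, at 0.97 each. These share each library's scaling, and are descriptions with no test.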

How the data were processed

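Gene counts and FPKM values of 43 libraries were deposited by the authors; per the labels' protocols the RNA was TRIzol-extracted, poly(A)-selected and sequenced as 150 bp paired ends with strand kept. The aligner and counter were not given in the sources used here, and the submitters' processing notes name mm10. The deposited counts were whole numbers, not normalised; the authors' FPKM values are scaled per length and depth and were used for levels between genes only, and as a test alternative. The files' gene positions fit another build than mm10 and none is printed. Promoters came from RefSeq's table for GRCm38.p6.

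Libraries held 32716294 to 44259619 counts. Groups came from the labels. Counts were tested in R 4.3.3 with edgeR 4.0.16 (TMM scaling, which also gave the normalised CPM, low-count filter by group, robust quasi-likelihood test) with group and library set as terms, over 20218 genes with Benjamini-Hochberg adjustment and a threshold of 0.05. Alternatives used DESeq2 1.42.0 and limma 3.58.1, other scalings and filters, single library sets, a replicate block, and leaving out each library. The edgeR fit and test with group and library set as terms were run on simulated data. Of 19819 genes run for HFD against SD, the test recovered 3.64% of those changed 1.4-fold, 40.6% of 2-fold and 83.8% of 4-fold. Only 55, 69 and 68 genes were changed by these folds, drawn from all genes run. The measured data had far more calls (20.2% of genes higher, 15.1% lower), so these shares are not the recovery for the members. The alternatives, correlations and motif counts were not run on simulated data. Named genes were 18 genes of a list (the stalk genes, Rpsa, other subunits and paralogs), the 5 highest and 5 lowest by difference in each comparison, and from each other list up to 2 called genes of smallest p in each direction; any further gene was chosen after its values were seen, and some genes of the other lists are not reported here. The members and lists were chosen with earlier results of these data known. Figures used matplotlib 3.10.9.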

Additional observations from a re-analysis of the deposited data

Results flagged for a closer look

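Of 95 groups of values tested for a library far from the others, 4 gave one, where chance gives about 1 in 20. Rpl3l in SZ-A 400 library 6 was at 12.9 normalised CPM, where the next library was at 1.05. Rpl3l in SZ-A 200 library 9 was at 0.495, and the next at 0.25. Rpl39l in HFD library 10 was at 3.29, and the next at 1.27, and Rpl39l in SZ-A 200 library 9 was at 1.1, and the next at 0.356. Both genes are at the lowest levels among the members tested.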

How the results depend on the processing

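For HFD against SD, 65 genes called became 30 without the library set term, 8 in set 1 only, 0 in set 2 only (66 at an unadjusted p under 0.05) and 43 in set 2 without 3 libraries with other tissue genes. It was 48 with library totals and 57 with upper-quartile factors, and leaving out 1 library gave 58 to 69. For SZ-A 400, the 1 call was 0 with a minimum of 1 CPM in 7 libraries, with DESeq2, limma voom and both FPKM fits, in set 1 or set 2 only, in set 2 without 3 libraries and without 4 libraries with other tissue genes; leaving out 1 library gave 0 to 1. For SZ-A 600, the 2 calls were 1 with that minimum, without a filter and without the set term, 0 in set 2 only and in set 2 without 3 libraries, and 5 without 4 libraries; in set 1 only 2 genes were called, neither of them the same; leaving out 1 library gave 1 to 4. SZ-A 200 stayed at 0 in all settings run, and the sets' 80 at 79 to 81. Rplp0 turned from -0.09 to 0.02 at 200 and to 0.07 at 400 in set 1 only, and to 0.05 at 400 without the set term. The cause was not tested. The settings without libraries with other tissue genes in set 2 were chosen after seeing the data.

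With a replicate block in place of the set, the count was 78 for HFD against SD, 0 for SZ-A 400 and 1 for SZ-A 600. Same-numbered libraries did not deviate together more than others did (median r 0.14 over 79 pairs, 0.18 for other numbers of the same set). With the set means taken out as well, the medians were 0.03 and 0.01. Whether same-numbered libraries share a day or a sequencing run was not tested.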
